A study of Mus musculus with 2 samples.

Results

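Expression of 6 genes of the embryonic growth programme was followed in the cells of the amputated neonate mouse digit: the chromatin proteins Hmga1 and Hmga2, the RNA-binding proteins Igf2bp1, Igf2bp2 and Igf2bp3, and Lin28b. They are 6 of the 33696 genes listed in each library and were selected by symbol. The group was proposed with the higher Hmga1 and Hmga2 levels of FGF8-treated fibroblasts already in view, so the FGF8 and BSA levels given for fibroblast-like cells are a description and carry no test. Of the 6, all had at least 10 UMIs (unique molecular identifiers, 1 per captured transcript) in fibroblast-like cells, Lin28b with only 25 over both libraries.

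ICR mice had the middle phalanx (P2) of hindlimb digits 2 and 4 amputated at postnatal day 3, and at postnatal day 7, after the wound had closed, received an agarose bead carrying FGF8 (500 ng/µl) or bovine serum albumin (BSA, 0.1% in phosphate-buffered saline) as the control. Tissue distal to the P2 stump was dissected 24 h later, at postnatal day 8, with the epithelium removed, and 20 digits from 5 mice of both sexes were pooled into 1 single-cell library per treatment. Both groups therefore carry the amputation and the bead, and treatment, digit pool and library cannot be told apart, and the FGF8 pool may include digits that did not respond to the bead. The FGF8 library held 7249 barcodes with 124889213 UMIs and the BSA library 3703 barcodes with 67739460 UMIs, and 6715 and 3252 barcodes passed the filters. Intervals below are exact 95% intervals that cover counting error only. With 1 library per treatment there is no replicate spread and no p-value.

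Hmga1 and Hmga2 are small architectural chromatin proteins whose AT-hooks grip AT-rich DNA. Both are abundant in embryonic mesenchyme, largely silent in adult tissue and found again in many tumours, and Hmga2 is required for normal body size in mice. The Igf2bp proteins bind messenger RNAs such as those of Igf2, Myc and Actb and affect their stability, location and translation. Igf2bp1 and Igf2bp3 are mostly fetal, whereas Igf2bp2 persists after birth. Lin28b blocks the maturation of let-7 microRNAs, and let-7 in turn represses Hmga2, the Igf2bp genes and Lin28b through sites in their 3′ untranslated regions (UTRs).

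The let-7 sites are shown because they are the sequence feature that the 6 genes share. Of 11 mature let-7 family sequences in the RefSeq table (GRCm38.p6), 10 carry the same seed, bases 2 to 8 of the microRNA, set in capitals in the example below. Its exact complement, CTACCTC, was searched on the transcribed strand of the longest annotated 3′ UTR of each gene (GENCODE, GRCm39) and is in capitals in the 30-base windows, which are written as DNA, 5′ to 3′. Matches of this kind stood in 2496 of 20973 genes with a 3′ UTR (11.9%), and 15 genes (0.0715%) had at least 4 of them.
let-7a-5p: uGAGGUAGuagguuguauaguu
Hmga2 site 1, chr10:120200122-120200151, minus strand: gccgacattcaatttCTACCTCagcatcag
Hmga2 site 2, chr10:120198885-120198914, minus strand: ccccactcctcaataCTACCTCtgaatgct
Hmga2 site 3, chr10:120198447-120198476, minus strand: ctgatttgcaaggaaCTACCTCcacacttc
Hmga2 site 4, chr10:120197589-120197618, minus strand: aatcaaaacacactaCTACCTCttaagtcc
Hmga1 site 1, chr17:27782251-27782280, plus strand: tcctctgttcacaaaCTACCTCtggacggt
Igf2bp1 site 1, chr11:95852597-95852626, minus strand: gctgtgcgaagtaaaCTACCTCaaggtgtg
Igf2bp2 site 1, chr16:21878216-21878245, minus strand: acacacaaataaaagCTACCTCaggtgttt
Igf2bp3 site 1, chr6:49063714-49063743, minus strand: tgcatttttactcaaCTACCTCaggtattc
Lin28b site 1, chr10:45257111-45257140, minus strand: acccgggcgggaagtCTACCTCatgcaagc

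All 6 genes held at least 1 match, 15 matches in total. Hmga2 had 4 in a 3′ UTR of 3021 bases, starting at bases 58, 1295, 1733 and 2591 of it, Igf2bp1 had 4 in 6337 bases and Lin28b 4 in 4515 bases. Hmga1 (1191 bases), Igf2bp2 (1784 bases) and Igf2bp3 (2132 bases) had 1 each. Among 3609 genes with a 3′ UTR within 1.25-fold of the length of that of Hmga2, 17.5% had a match and 0.139% had as many. A match is a stretch of letters and not a measured site, and mature let-7 was not measured in these polyadenylated RNA libraries. On GRCm39 the genes themselves span chr17:27775449-27782648 on the plus strand (Hmga1) and, on the minus strand, chr10:120197173-120313095 (Hmga2), chr11:95847989-95896911 (Igf2bp1), chr16:21877759-21982499 (Igf2bp2), chr6:49062144-49192447 (Igf2bp3) and chr10:45252646-45362557 (Lin28b).

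Cells were clustered as the study's methods describe, and the cluster led by Mfap5, Mfap4 and Crabp1, with all 8 fibroblast markers found in at least 10% of its cells, is called fibroblast-like. Hmga2 was 1 of the variable features behind this clustering, and leaving it out moved the log2 ratios by less than their counting intervals. The cluster held 3324 FGF8 and 1713 BSA cells, with 69874328 and 35559304 UMIs and medians of 18606 and 20135 UMIs per cell. The 8 fibroblast markers themselves summed to 23534 CPM (counts per 1000000 UMIs) in FGF8 and 43595 CPM in BSA. The 6 tenocyte markers, the list next closest to this cluster, summed to 687 and 577 CPM, with Thbs4 at 450 and 176 CPM. Markers of other cell types were counted in it at unequal levels, with 8 smooth muscle or pericyte markers at 441 and 536 CPM, 6 osteoblast markers at 333 and 305 CPM, the 5 osteoclast markers, mostly Ctsk, at 273 and 469 CPM, and the 6 lymphatic endothelial markers, mostly Pdpn, at 123 and 64.0 CPM. The 8 macrophage markers summed to 27.9 CPM in FGF8 and 20.02 CPM in BSA, the 7 Schwann markers to 14.5 and 16.6 CPM, and the 8 neutrophil markers, with Ly6g at 0, to 33.3 and 16.1 CPM. The 8 chondrocyte markers, among which Acan was the most abundant, summed to 254 and 279 CPM. The 7 erythroid markers, led by the globin Hbb-bs at 778 and 805 CPM, summed to 1433 and 1652 CPM. The part of these other cell types in the results below was not tested. The pools differed in sex: by Xist and Y-linked genes, 684 fibroblast-like cells were called female and 2129 male in the FGF8 library, against 1190 and 296 in the BSA library. The libraries had 6 barcodes in common, carried by 2 FGF8 and 3 BSA cells of this cluster.

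Hmga2 and Hmga1 were the members that differed most between the libraries in fibroblast-like cells. Hmga2 stood at 269 CPM in the FGF8 library (18798 UMIs) and 32.8 CPM in that with BSA (1165 UMIs), an 8.21-fold higher level (log2 ratio 3.04, interval 2.95 to 3.12). It was the gene with the 508th highest level of 20053 genes in the FGF8 cells and the 4955th in the BSA cells, and its log2 ratio ranked 48th. Hmga1 stood at 30.6 CPM (2141 UMIs) against 4.47 CPM (159 UMIs), 6.85-fold higher (log2 ratio 2.78, interval 2.54 to 3.02), and ranked 85th. Both chromatin genes were thus higher in the FGF8-treated cells.

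The RNA-binding members differed much less. Igf2bp1 was at 22.2 CPM in FGF8 (1551 UMIs) and 14.0 CPM in BSA (499 UMIs), with a log2 ratio of 0.66 (0.52 to 0.81). Igf2bp2 was at 67.0 CPM (4681 UMIs) and 42.1 CPM (1496 UMIs), with a log2 ratio of 0.67 (0.59 to 0.76). Igf2bp3 was at 31.9 CPM (2230 UMIs) and 25.8 CPM (916 UMIs), with a log2 ratio of 0.31 (0.20 to 0.42). Each of the 3 was higher in the FGF8 library beyond counting error, by less than 2-fold. Lin28b was almost undetected, with 21 UMIs in the FGF8 cells (0.301 CPM) and 4 in the BSA cells (0.112 CPM), and its log2 ratio of 1.42 had an interval from -0.15 to 3.42.

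A log2 ratio above 1 in fibroblast-like cells was found for 3 of the 6 members, Hmga1, Hmga2 and Lin28b, where 6.5% of the 20053 genes with at least 10 UMIs did. None was below -1, against 5.1% of all genes, and all 6 were above 0, against 43.9%. The Lin28b value rests on 21 and 4 UMIs, and it was 0.23 with the cells of highest doublet score removed. Because this contrast was used in choosing the group, nothing is read from these counts of members. The median log2 ratio of all 20053 genes was -0.07. In bulk sums of this kind, more cells with a transcript and more transcripts per cell cannot be told apart, so the cells are taken up next.

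**Figure D1:**
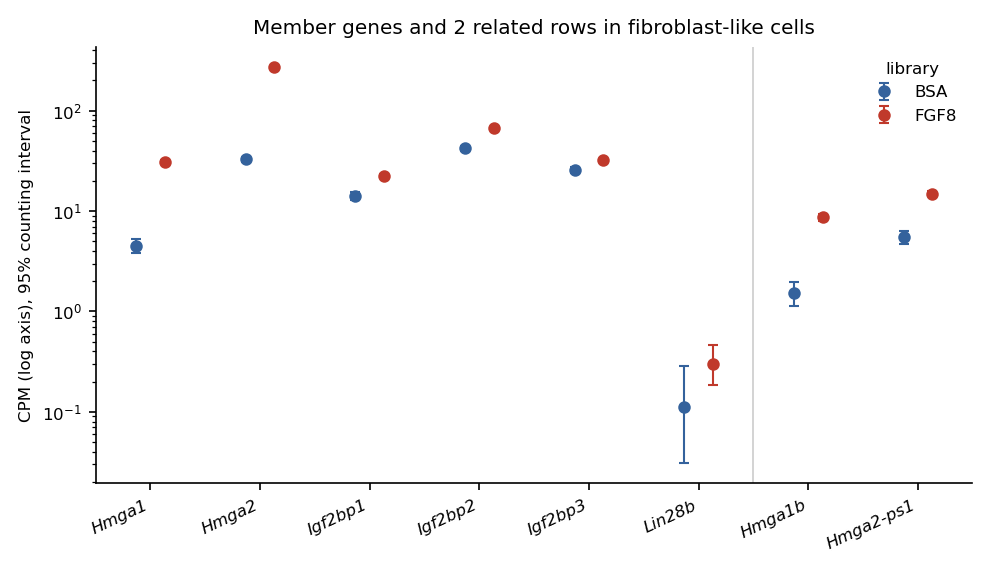
CPM (log axis) of the 6 members and, right of the grey line, of the related rows Hmga1b and Hmga2-ps1, summed over fibroblast-like cells of the BSA (blue) and FGF8 (red) library, with exact 95% Poisson intervals. Hmga2 lies at 269 CPM in FGF8 and 32.8 CPM in BSA, whereas the Igf2bp genes lie close together in the 2 libraries and Lin28b lies below 1 CPM in both.

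At least 1 Hmga2 UMI was found in 1459 of 3324 FGF8 cells (43.9%, exact binomial interval 42.2 to 45.6) and in 377 of 1713 BSA cells (22.0%, 20.1 to 24.05). After thinning each cell to 5000 UMIs, which left 2935 and 1497 cells, the shares were 29.3% (27.7 to 31.0) and 8.22% (6.87 to 9.72). Erythroid-like cells, which should lack the gene, gave 5.87% and 2.44% unthinned (medians of 6983 and 18542 UMIs per cell), and 3.01% and 1.45% at 5000 UMIs. More fibroblast-like cells thus held Hmga2 in the FGF8 library after thinning to 5000 UMIs. Without thinning, the positive cells also held more of it, with a mean of 12.9 UMIs against 3.09. These means were not compared at equal depth.

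Hmga2 was concentrated in a minority of cells. The 10% of cells with the most Hmga2 held 72.4% of its UMIs under FGF8 and 79.9% under BSA, and the highest cells had 158 and 69 UMIs. Hmga2 reached 10 or more UMIs in 510 FGF8 cells and in 16 BSA cells. For Igf2bp2, the member spread most evenly, the top 10% held 44.1% and 48.9%, and 26 and 4 cells reached 10 UMIs.

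Shares of cells for the other members followed their CPM. At 5000 UMIs, Hmga1 was found in 8.45% of FGF8 cells (7.47 to 9.51) and 1.27% of BSA cells (0.766 to 1.97), beside 0.822% of erythroid-like cells of the FGF8 library. Igf2bp2 was found in 22.9% (21.4 to 24.5) and 17.7% (15.8 to 19.7). For Igf2bp1 the shares were 7.97% (7.02 to 9.01) and 6.08% (4.92 to 7.41), and for Igf2bp3 12.4% (11.2 to 13.6) and 10.2% (8.73 to 11.9), higher in FGF8 with intervals that overlapped at their ends. Lin28b had a UMI in 11 FGF8 cells and 4 BSA cells, and 1 FGF8 cell alone held 9 of the 21 UMIs.

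Fibroblast-like cells were re-clustered on 2672 features from which the genes of the study's own lists, the members, their related rows and the X- and Y-linked genes had been removed, which gave 6 subclusters. Subcluster 0 was led by Prg4 (lubricin, the joint lubricant), the protease gene Mmp3 and replication histones. Hmga1 and Hmga2, which were not features, were among its 10 leading genes. Leading genes were ranked over the cells of both libraries together, so the difference between the libraries enters this rank. Subcluster 0 held 994 FGF8 cells (29.9% of fibroblast-like cells, 28.4 to 31.5) and 252 BSA cells (14.7%, 13.1 to 16.5). Its cells were deep, with medians of 34494 and 31335 UMIs. Subcluster 1 was led by Chodl, Ahrr and Sema3a, subcluster 2 by the tenocyte marker Fmod with Kcnma1 and Comp, subcluster 3 by Lpl, Dlk1 and Agtr2, and subcluster 5 by Coch and Nrg1. Subcluster 4 was led by Lars2, Camk1d and Gphn and was shallow, with medians of 2493 and 2539 UMIs.

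Most Hmga1 and Hmga2 transcripts came from subcluster 0. In the FGF8 library it held 92.2% of the Hmga1 UMIs of fibroblast-like cells and 88.6% of the Hmga2 UMIs, and in the BSA library 63.5% and 53.8%. Of the UMIs of all genes in fibroblast-like cells, it held 49.5% in FGF8 and 22.5% in BSA. Of the 510 FGF8 cells with 10 or more Hmga2 UMIs, 469 lay in subcluster 0, as did 12 of the 16 BSA cells. Per UMI sequenced, Hmga2 was 7.90-fold higher in subcluster 0 than in the other fibroblast-like cells under FGF8 and 4.01-fold higher under BSA. The corresponding values were 12.2-fold and 5.99-fold for Hmga1, 2.29-fold and 1.86-fold for Igf2bp1, 1.53-fold and 1.20-fold for Igf2bp2, and 1.16-fold and 1.08-fold for Igf2bp3. These folds describe a cluster against the rest of the same cells and carry no test. The order of these genes, Hmga1 first and Igf2bp3 last, was the same in both libraries, with Lin28b left out for its few UMIs. For Igf2bp3 in BSA the log2 interval, -0.11 to 0.33, included 0.

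The difference between the libraries was present inside subcluster 0 and also outside it. Hmga2 stood at 482 CPM in the FGF8 cells of subcluster 0 and 78.3 CPM in its BSA cells, a log2 ratio of 2.62 (2.51 to 2.74), and Hmga1 at 57.1 and 12.6 CPM, a log2 ratio of 2.18 (1.89 to 2.48). The median cell cycle share also differed inside subcluster 0, at 1.03% of UMIs in FGF8 and 0.453% in BSA, and its part in these ratios was not tested. With subcluster 0 left out, an alternative added after the data had been seen, Hmga2 was at 60.9 and 19.5 CPM (log2 ratio 1.64, 1.50 to 1.78) and Hmga1 at 4.70 and 2.10 CPM (1.16, 0.72 to 1.62). The shallow subcluster 4 held 919 of these 2151 Hmga2 UMIs in FGF8 and 40 of 538 in BSA. It had 2.85% of the UMIs of FGF8 fibroblast-like cells. In subclusters 1, 2, 3 and 5 the Hmga2 log2 ratio was lower than 1.64, from 0.21 to 1.25. Hmga2 and Hmga1 were therefore higher in the FGF8 library both within and outside the subcluster that held most of their transcripts. In the background of fibroblast-like cells without subcluster 0, 6.19% of genes had a log2 ratio above 1.

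Hmga2 differed in the same direction in subcluster 1 (33.7 and 14.2 CPM, log2 ratio 1.25), subcluster 2 (54.4 and 29.5 CPM, 0.89) and subcluster 3 (29.8 and 13.6 CPM, 1.13). In subcluster 1 a single BSA cell held 69 of the 132 BSA UMIs, which lowers the ratio there. Subcluster 5 was the exception, with 15.8 and 13.7 CPM and a log2 ratio of 0.21 whose interval, -0.38 to 0.80, included 0. For Hmga1 the interval included 0 in subcluster 2, at 5.44 and 4.14 CPM (log2 ratio 0.40, -0.25 to 1.06), and it was 2.18 in subcluster 1, 1.00 in subcluster 3, 2.87 (0.19 to 8.26) in subcluster 4 from 16 and 1 UMIs, and 2.65 (0.53 to 5.83) in subcluster 5 from 14 and 2 UMIs. The shallow subcluster 4 had an Hmga2 level near that of subcluster 0 in the FGF8 library, 461 CPM from 919 UMIs, against 43.9 CPM in BSA (40 UMIs). In it, 21 of 445 FGF8 cells held 645 of the 919 UMIs, and the log2 ratio there was 3.39 (2.94 to 3.89).

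Over all fibroblast-like cells outside subcluster 0, Igf2bp1 had 13.5 and 11.8 CPM, and its log2 ratio of 0.20 had an interval of -0.003 to 0.41. Igf2bp2 was at 53.2 and 40.3 CPM (0.40, 0.29 to 0.51) and Igf2bp3 at 29.5 and 25.3 CPM (0.22, 0.08 to 0.36). Igf2bp1 and Igf2bp3 were higher in the FGF8 library in the shallow subcluster 4, where Igf2bp1 was at 35.1 and 9.87 CPM (1.83, 0.82 to 3.02; 70 and 9 UMIs) and Igf2bp3 at 65.3 and 39.5 CPM (0.72, with an interval that excluded 0). Inside subcluster 0, Igf2bp2 was at 81.1 and 48.2 CPM (0.75, 0.60 to 0.91), Igf2bp1 at 31.0 and 21.9 CPM (0.51, 0.27 to 0.74) and Igf2bp3 at 34.4 and 27.4 CPM (0.33, 0.12 to 0.54). Igf2bp2 was the member of this family whose log2 ratio was above 0 in all 6 subclusters, from 0.12 in subcluster 5 to 0.75 in subcluster 0, with intervals that excluded 0 in every one but subcluster 5.

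**Figure D2:**
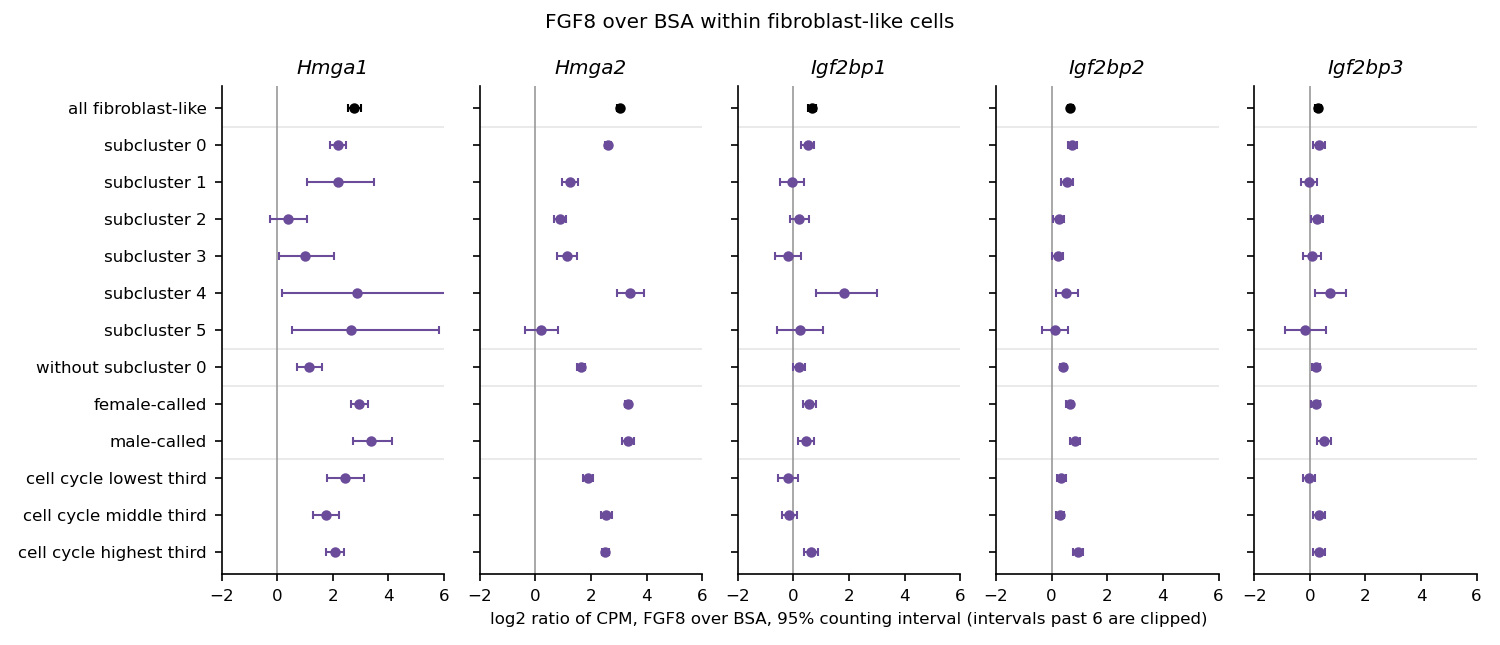
Log2 ratio of CPM, FGF8 over BSA, with exact 95% counting intervals, for 5 members (panels) in all fibroblast-like cells (black), each subcluster, the cells outside subcluster 0, the cells of each called sex and the groups by cell cycle share, from low-cycle (lowest) to high-cycle (highest) cells. Hmga2 is above 0 with an interval that excludes 0 in every row except subcluster 5, and Igf2bp1 reaches its highest value, 1.83, in the shallow subcluster 4.

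Hmga1, Hmga2 and Igf2bp1 were higher in cells with more cell cycle transcripts in both libraries, and the libraries differed in the number of such cells. The share of each cell's UMIs that came from 97 S and G2/M phase genes was used to split the cells of both libraries into 3 groups of equal size, at 0.147% and 0.314% (764 and 166 cells lay within 10% of these limits). The high-cycle group held 1389 FGF8 cells (41.8%) and 290 BSA cells (16.9%), and the low-cycle group 798 (24.01%) and 881 (51.4%). Hmga2 was 4.77-fold higher in high-cycle than in low-cycle FGF8 cells and 3.09-fold higher in BSA. Hmga1 was 5.40-fold and 7.03-fold higher, and Igf2bp1 3.50-fold and 2.00-fold. Igf2bp2 and Igf2bp3 moved least with the cycle, at 1.48-fold and 1.37-fold in FGF8 and 0.976-fold and 1.08-fold in BSA, where neither difference exceeded counting error.

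Within these groups, Hmga2 and Hmga1 remained higher in the FGF8 library. In low-cycle cells, Hmga2 was at 80.6 CPM in FGF8 and 21.8 CPM in BSA (log2 ratio 1.88, 1.71 to 2.06), and in high-cycle cells at 385 and 67.6 CPM (2.51, 2.38 to 2.64). Hmga1 was at 8.25 and 1.52 CPM in low-cycle cells (2.44, 1.81 to 3.12) and at 44.5 and 10.7 CPM in high-cycle cells (2.06, 1.74 to 2.39). A difference in the number of cycling cells was thus accompanied by a difference of these 2 genes among cells of like cycle share. For Igf2bp1 the log2 ratio was -0.19 (-0.56 to 0.18) in low-cycle cells, -0.15 (-0.42 to 0.13) in the middle group and 0.62 (0.37 to 0.87) in high-cycle cells.

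The sexes, which were unequal between the pools, gave the same picture. In female-called cells Hmga2 was at 340 CPM in FGF8 and 33.7 CPM in BSA, and in male-called cells at 245 and 24.3 CPM, with a log2 ratio of 3.33 in each. The log2 ratio of Hmga1 was 2.95 (2.66 to 3.25) in female-called and 3.38 (2.73 to 4.12) in male-called cells. For the Igf2bp genes the values lay between 0.21 and 0.83, and for each of them the intervals of the sexes overlapped.

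Across cell types, Hmga2 was highest in chondrocyte-like cells, the cluster led by Snorc, Col2a1 and Col9a2. It stood at 588 CPM in the 142 FGF8 cells (1877 UMIs) and at 143 CPM in the 66 BSA cells (234 UMIs), a log2 ratio of 2.04 (1.84 to 2.24), and in both libraries the next cell type in order lay below it beyond counting error. Hmga1 in the same cells was at 37.9 CPM (121 UMIs) and 9.18 CPM (15 UMIs), a log2 ratio of 2.05 (1.27 to 2.93). In chondrocyte-like cells 10.6% of 12128 genes had a log2 ratio above 1. Igf2bp2, the highest Igf2bp gene in these cells, was at 120 and 115 CPM, a log2 ratio of 0.06 whose interval of -0.19 to 0.32 included 0. The 2 chromatin genes therefore differed between the libraries in chondrocyte-like cells while Igf2bp2 did not differ beyond counting error.

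Macrophage-like cells were the highest cell type for Igf2bp3. It stood at 109 CPM in 890 FGF8 cells (1118 UMIs) and 114 CPM in 466 BSA cells (653 UMIs), above the 31.9 and 25.8 CPM of fibroblast-like cells, with a log2 ratio of -0.05 (-0.20 to 0.09). In the BSA library the next type, mast-like cells at 57.0 CPM, lay below beyond counting error, whereas in the FGF8 library lymphatic endothelial-like cells at 97.9 CPM (21 UMIs) could not be separated. Of all Igf2bp3 UMIs, 53.8% in FGF8 and 46.7% in BSA came from fibroblast-like cells, against 86.8% and 75.8% of the Hmga2 UMIs. Apart from Lin28b, which rests on 36 and 9 UMIs and had 44.4% in BSA, Igf2bp3 was the member with the smallest such share in both libraries. Keratinocyte-like cells had 58.8 and 25.6 CPM of Igf2bp3 (111 and 24 UMIs), a log2 ratio of 1.20 (0.55 to 1.90), in cells that were much shallower in BSA (median of 1967 UMIs against 10305). Within the called sexes both intervals included 0. The log2 ratio was 0.84 (-0.05 to 1.81) in female-called cells and 0.77 (-0.36 to 2.15) in male-called cells.

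The order of cell types differed for each Igf2bp gene. Igf2bp2 was highest in chondrocyte-like cells in both libraries, with Schwann-like cells next (80.2 and 84.7 CPM). In BSA fibroblast-like cells came after these, and each of the 3 lay apart beyond counting error. In FGF8 the shallow Lars2 and Camk1d cells (78.1 CPM, 33 UMIs) lay between Schwann-like and fibroblast-like cells, and neighbours among these could not be separated. Igf2bp1 was highest in fibroblast-like cells among types with at least 10 UMIs of it, and smooth muscle or pericyte-like cells, at 19.4 and 12.1 CPM (71 and 35 UMIs), were not separable from them. Smooth muscle or pericyte-like cells, led by Rgs5, Myh11 and Higd1b, had all 3 Igf2bp genes higher in the FGF8 library, with log2 ratios of 0.68, 0.72 and 0.63 for Igf2bp1, Igf2bp2 and Igf2bp3 and intervals that excluded 0. Within the called sexes only Igf2bp3 in female-called cells (1.11, 0.44 to 1.77) and Igf2bp2 in male-called cells (1.07, 0.06 to 2.27) kept an interval that excluded 0. In female-called cells Igf2bp1 was at 0.81 (16 and 24 UMIs) and Igf2bp2 at 0.55 (20 and 36 UMIs), and in male-called cells Igf2bp1 and Igf2bp3 were each at 0.31, all with intervals that included 0. Schwann-like cells had none of the 3 different beyond counting error, with log2 ratios of -0.06, -0.08 and 0.11, over both sexes. In female-called Schwann-like cells, however, Igf2bp2 was at 47.4 CPM in FGF8 (32 UMIs) and 92.3 CPM in BSA (143 UMIs), a log2 ratio of -0.96 (-1.56 to -0.40), against 0.25 (-0.35 to 0.90) in male-called cells.

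**Figure D3:**
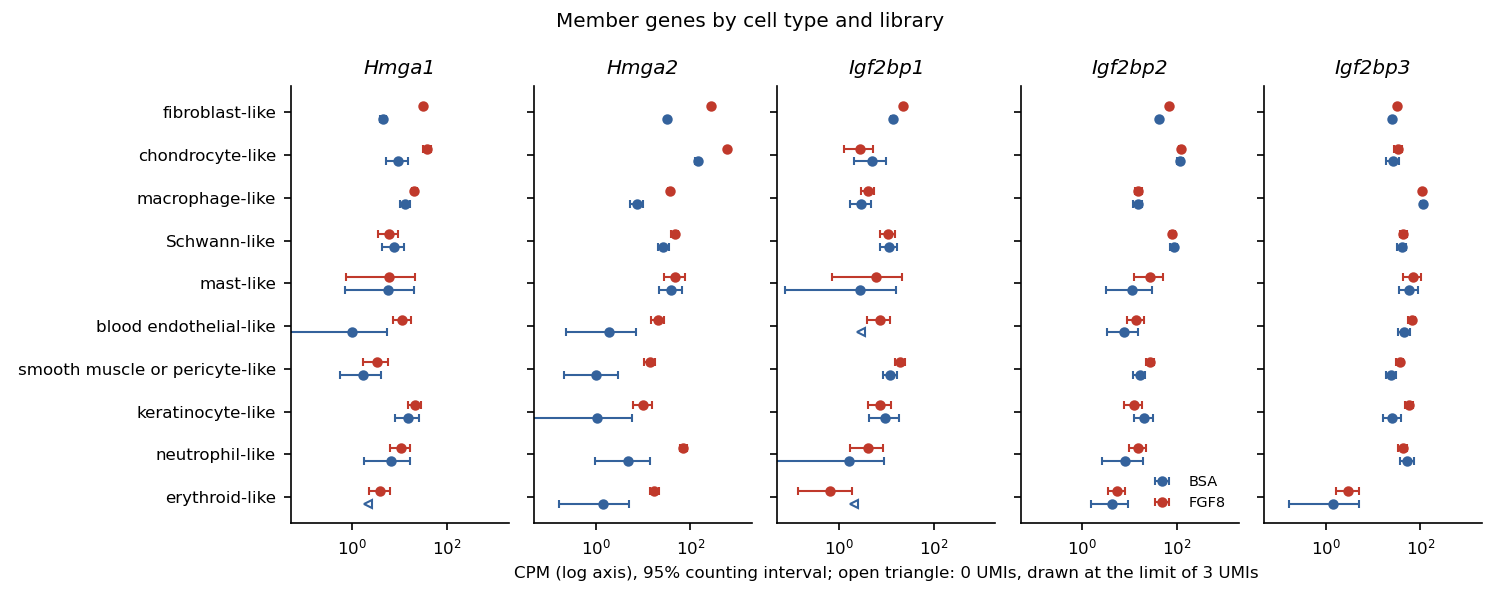
CPM (log axis) of 5 members in 10 cell types of the BSA (blue) and FGF8 (red) library, with exact 95% Poisson intervals, an open triangle marking 0 UMIs at the level of 3 UMIs. Hmga2 is highest in chondrocyte-like cells (588 and 143 CPM), Igf2bp3 in macrophage-like cells (109 and 114 CPM).

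Hmga2 UMIs were also counted in cells that should lack the gene, more often in the FGF8 library. Neutrophil-like cells had 120 UMIs in FGF8 (71.5 CPM) and 3 in BSA, and erythroid-like cells 81 UMIs (17.5 CPM) and 2. To set these beside transcripts from fibroblasts, Hmga2 was expressed per 1000 UMIs of the 8 fibroblast markers. The ratio was 11.4 in fibroblast-like cells of the FGF8 library, 12.2 in neutrophil-like cells and 8.92 in erythroid-like cells. In BSA it was 0.752 in fibroblast-like cells, 1.14 in neutrophil-like cells and 0.323 in erythroid-like cells, from 3 and 2 UMIs in the latter types. Macrophage-like cells (388 UMIs, 38.0 CPM) had a ratio of 16.4, Schwann-like cells (151 UMIs) 8.15 and smooth muscle or pericyte-like cells (51 UMIs) 2.03. The Hmga2 counts of the blood cells are not read as expression, and the part of free RNA in any cell type was not tested.

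Chondrocyte-like cells had a far higher ratio, with 140 Hmga2 UMIs per 1000 fibroblast marker UMIs under FGF8 and 14.8 under BSA, where fibroblast-like cells had 0.752. The fibroblast markers that form the denominator were themselves lower in FGF8 chondrocyte-like cells (4199 CPM) than in BSA ones (9663 CPM), so these ratios are compared between cell types of 1 library and not between libraries. Macrophage-like and Schwann-like cells of the BSA library, with ratios of 4.34 each, were above the fibroblast-like value, from 43 and 57 UMIs. Mast-like cells had ratios of 35.6 and 15.1 from 16 and 14 UMIs, and their Hmga2 levels of 47.8 and 39.9 CPM did not differ beyond counting error (log2 ratio 0.26, -0.87 to 1.41).

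**Figure D4:**
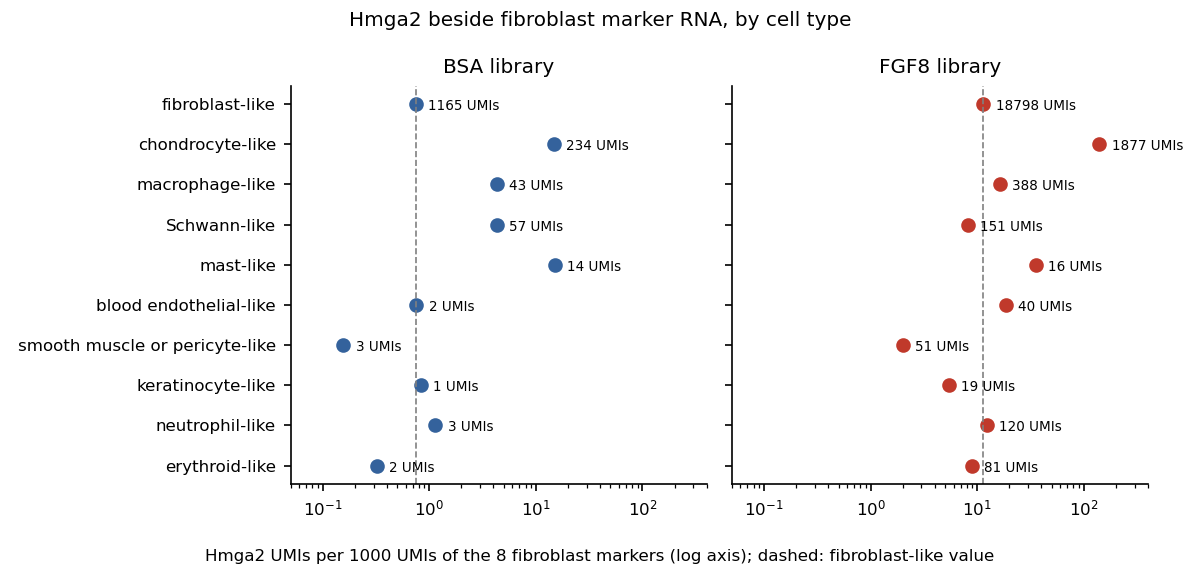
Hmga2 UMIs per 1000 UMIs of the 8 fibroblast markers (log axis) in 10 cell types of each library, with the Hmga2 UMIs beside each point and the fibroblast-like value dashed. In the FGF8 library neutrophil-like (12.2) and erythroid-like (8.92) cells lie by the fibroblast-like value of 11.4, and chondrocyte-like cells lie at 140.

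Lin28b stayed near the limit of detection throughout, with 36 UMIs in all kept cells of the FGF8 library and 9 in those of the BSA library. Macrophage-like cells held 9 UMIs in FGF8 and 0 in BSA, and chondrocyte-like cells 0 and 4. Its relative Lin28a had 0 UMIs in fibroblast-like cells of either library, which allows up to 0.0429 CPM in FGF8 and 0.0844 CPM in BSA. Lin28b thus could not be compared between cell types at this depth.

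Related rows of the 2 Hmga genes were listed separately. Hmga1b (chr11:120653620-120655245, plus strand) shares 89.0% of its 50-base words with Hmga1 transcripts, so that counting can split or drop reads of either, and both levels are uncertain to that extent. It had 8.63 CPM in FGF8 fibroblast-like cells and 1.52 CPM in BSA, a log2 ratio of 2.51 (2.10 to 2.94), and 94.2% of its FGF8 UMIs lay in subcluster 0. Summing Hmga1 and Hmga1b left the log2 ratio within the interval of Hmga1 alone. Hmga2-ps1 (chr1:176662183-176663734, minus strand), annotated as a long non-coding RNA, shares 0% of such words with Hmga2 on the same strand and 7.25% when either strand is allowed. It was at 14.9 and 5.48 CPM, a log2 ratio of 1.44 (1.22 to 1.67), and outside subcluster 0 at 5.30 and 5.26 CPM (0.01, -0.31 to 0.33). Macrophage-like cells had more of it, 41.6 and 48.6 CPM, so that its order of cell types was unlike that of Hmga2.

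The genes around the members were read from 6 lists, whose median log2 ratios in fibroblast-like cells stand beside the -0.07 of all genes. Lin28 and let-7 processing genes had a median of -0.07 over 9 genes, with 3 above 0 and 6 below. None was beyond 1 in either direction, where 6.5% of all genes were above 1 and 5.1% below -1. The interval lay below 0 for Tut4, Dis3l2, Dgcr8 and Mir100hg and above 0 for Ago2. Tut4, which uridylates let-7 precursors, was at 74.6 CPM in FGF8 and 88.6 CPM in BSA, and Dicer1 at 31.5 and 31.1 CPM. Mir100hg, a host transcript of a let-7 family member, was at 102 and 146 CPM (log2 ratio -0.51). Among 19 other let-7 targets the median was 0.09, with 12 above 0 and 1 above 1, beside 43.9% and 6.5% of all genes. The share above 1 was thus near that of all genes. The gene above 1 was Ccnd1, the G1 cyclin D1, at 303 and 93.7 CPM (log2 ratio 1.69, 1.64 to 1.75). Myc (33.1 and 21.0 CPM) and Cdc34 (46.6 and 31.4 CPM) were also higher in FGF8, at 0.66 and 0.57, while Insr (23.2 and 35.7 CPM) was lower, at -0.62.

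Other high mobility group genes had a median of 0.47, with 6 of 9 above 0 and none above 1, beside 43.9% and 6.5% of all genes. The largest were Hmgb2, a cell cycle associated HMG box gene, at 363 and 194 CPM (0.90), and Hmgb3 at 75.1 and 42.6 CPM (0.82), whereas Hmgn3 was at 105 and 124 CPM (-0.24). The log2 ratios of Hmga1 and Hmga2 were higher, but these genes were chosen with that contrast in view, so nothing is read from this. Transcripts known to be bound by Igf2bp proteins had a median of -0.34 over 9 genes, with Cd44 (225 and 147 CPM, 0.62) and Myc at the upper end and Mapk4 (2.70 and 5.96 CPM, -1.14) at the lower.

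Other fetal and oncofetal growth genes were lower in the FGF8 library. All 9 that had enough UMIs, among them Igf2 and H19 that also stand in the list of bound transcripts, were below 0, with a median of -0.69, and 1 was below -1, where over all genes 43.9% were above 0 and 5.1% below -1. The cell cycle inhibitor Cdkn1c was at 221 CPM in FGF8 and 531 CPM in BSA (log2 ratio -1.26, -1.29 to -1.23). Gpc3, a membrane proteoglycan, was at 210 and 384 CPM (-0.87), the growth factor gene Igf2 at 11.9 and 19.6 CPM (-0.72), and the imprinted transcript H19 at 278 and 449 CPM (-0.69). Dlk1 (159 and 249 CPM, -0.65) and Mest (172 and 284 CPM, -0.73) were also lower, and are among the leading genes of subclusters 3 and 2. These subclusters made up smaller shares of the FGF8 fibroblast-like cells (12.8% and 14.1%) than of the BSA cells (14.5% and 19.03%). For subcluster 3 the intervals of the shares overlapped (11.7 to 14.0 and 12.8 to 16.2). The part of these shares in the list's median was not tested.

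The 97 S and G2/M phase genes had a median of 0.93, with 95 above 0 and 43 above 1, beside 43.9% and 6.5% of all genes. Cenpa (184 and 54.7 CPM, 1.75), Ube2c (251 and 80.2 CPM, 1.64) and Cdc20 (98.6 and 32.4 CPM, 1.60), which act in mitosis, were the highest.

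**Figure D5:**
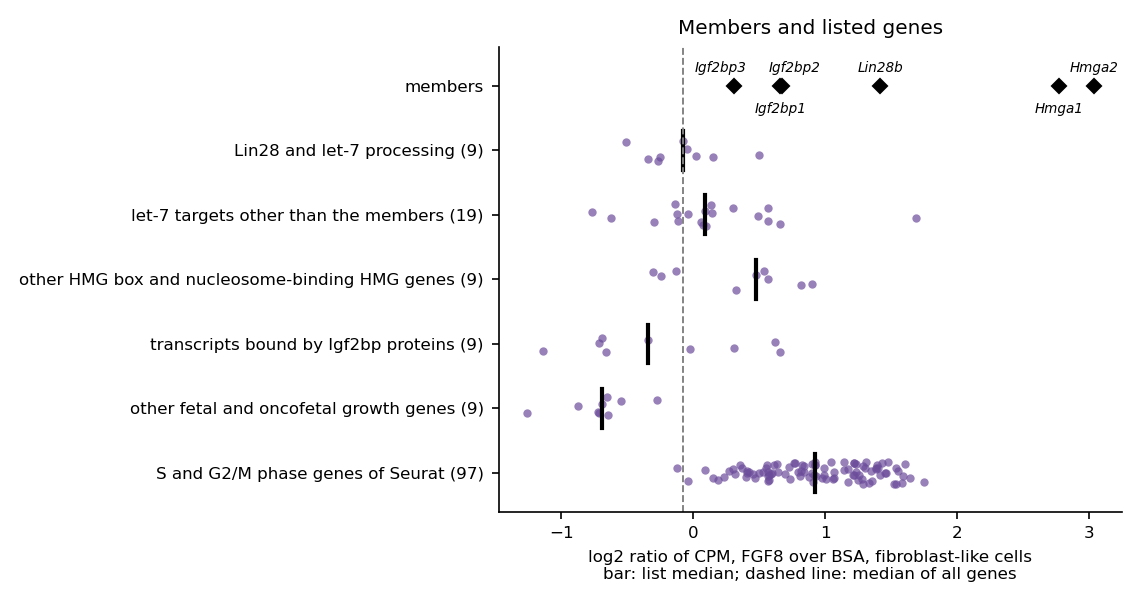
Log2 ratio of CPM, FGF8 over BSA, in fibroblast-like cells for the members (diamonds) and for the genes of 6 lists with at least 10 UMIs (points, numbers in brackets), with each list's median (bar) and the median of all genes (-0.07, dashed). Hmga1 and Hmga2, which were chosen with this contrast in view, lie right of every listed gene. The fetal growth genes lie left of 0, and the Lin28b point rests on 25 UMIs.

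Cells with Hmga1 more often held Hmga2 in the FGF8 library. Among FGF8 fibroblast-like cells thinned to 5000 UMIs, Hmga2 was found in 187 of 248 cells with Hmga1 (75.4%) and in 673 of 2687 cells without it (25.05%). The shares were 43.3% and 25.1% for cells with and without Igf2bp2, 48.7% and 27.6% for Igf2bp1, and 36.8% and 28.2% for Igf2bp3. The subcluster led by Prg4 held 92.2% of the Hmga1 UMIs and 88.6% of the Hmga2 UMIs of FGF8 fibroblast-like cells. The part of that subcluster in these shares was not tested. Conversely, Hmga1 was found in 21.7% of FGF8 cells with Hmga2 (19.03 to 24.7) and in 2.94% of those without it (2.26 to 3.76). In BSA cells the shares in this direction were 4 of 123 (3.25%, 0.893 to 8.12) and 15 of 1374 (1.09%, 0.612 to 1.79). Hmga2 was found in 11.7% and 7.47% of BSA cells with and without Igf2bp2, 11.0% and 8.04% for Igf2bp1, and 7.84% and 8.26% for Igf2bp3, and the intervals of each of these pairs overlapped.

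Over 20 points, 10 cell types in each of the 2 libraries, log2(CPM + 1) of Hmga2 had a Pearson r of 0.74 with Igf2bp2, 0.66 with Hmga1 and 0.16 with Igf2bp3. The points of 1 library share its depth and its free RNA, so these values are descriptions. Among 10738 genes with at least 1000 UMIs, the 5 most like Hmga2 were Spp1 (0.88), Enpp1 (0.86), Prg4 (0.85), Glis3 (0.85) and Timp1 (0.84). For Hmga1 they were Acvr1b (0.82), Ank (0.82), Pabpc1 (0.75), Hipk2 (0.74) and Gm49890 (0.74), and for Igf2bp1 Atf5 (0.88), Dusp10 (0.87), Fstl3 (0.86), Amer1 (0.86) and Dhrs4 (0.85). Igf2bp2 was most like Ugdh (0.91), Pmepa1 (0.91), Pcdh9 (0.90), Adk (0.90) and B3galnt2 (0.90), and Igf2bp3 most like Tex2 (0.96), 2510039O18Rik (0.96), Scamp2 (0.95), Lypla2 (0.95) and Tpp1 (0.95). No gene stood in more than 1 of these lists. Prg4 shared with Hmga2 its concentration in subcluster 0, which held 95.6% of the Prg4 UMIs of FGF8 fibroblast-like cells and 89.6% of those of BSA cells.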

How the data were processed

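The authors deposited UMI counts per gene and barcode for 2 libraries, made from 10x Genomics 3′ reads with Cell Ranger 9.0.0 (default settings, GRCm39). Barcodes with more than 200 and fewer than 7500 genes and under 15% mitochondrial UMIs were kept. Following the study's methods, libraries were merged (FGF8 first), normalized with sctransform 0.4.2, integrated by CCA and clustered in Seurat 5.3.0 (30 components, resolution 0.05, seed 42, R 4.3.3). Clusters were named from fixed markers, of which at least 3 had to be found in 10% of cells. The allowance for related lineages, the naming of the re-clustered unnamed cluster, and the merge order were set after the clusters had been seen. BSA first gave a larger fibroblast-like cluster that took in shallow cells. Fibroblast-like cells were re-clustered at 0.2.

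UMIs were summed per cell type and library and scaled to CPM. The log2 ratio has an exact conditional 95% interval, and a count of 0 is set to a floor of 3 over the cell type. The interval was tested on simulated data. Genes with under 10 UMIs over both libraries were not counted in lists. Sex was called from Xist and 4 Y-linked genes. Scrublet called 0 doublets in either library and was taken as not having worked, so an alternative removed the 361 and 85 highest scores. Cells share 1 library per treatment, so no test across samples was possible. Named genes were the members, their related rows, list genes past a log2 ratio of 1 (all named except in the S and G2/M list, where the 3 highest are) with examples from each list chosen after their values were seen, and the 5 genes most like each member. The members and lists were chosen with earlier results of these data known. Python 3.11.15 with scipy 1.17.1 was used.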

Additional observations from a re-analysis of the deposited data

Results flagged for a closer look

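Barcodes with 7500 or more detected genes, which the filters left out (274 in FGF8 and 161 in BSA), also held the members, and they drew attention as signal outside the cells compared. Hmga2 stood in them at 450 CPM in FGF8 and 60.3 CPM in BSA, and Hmga1 at 38 and 10.2 CPM. The log2 ratios in them were 2.90 for Hmga2 and 1.90 for Hmga1, beside 2.89 and 2.12 in kept cells of all types, with 1.12 (0.85 to 1.40) for Igf2bp1, 0.83 for Igf2bp2 and 0.49 for Igf2bp3. Their median depths were 67797 and 64812 UMIs, and whether they are doublets was not tested.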

How the results depend on the processing

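No paired analysis was possible because each treatment is 1 library. Hmga1 and Hmga2 were above 0 in fibroblast-like cells under every alternative run, but their size moved. The log2 ratios of Hmga1 and Hmga2 were 2.52 and 2.57 under the stricter cell filter, which leaves out cells with 6000 or more genes. They were 1.67 and 2.40 at resolution 0.1, where 1745 FGF8 and 1105 BSA cells are fibroblast-like and a cluster led by Prg4 (1578 and 606 cells) stands apart, and 1.52 and 1.48 at resolution 0.2, with 1316 and 907 fibroblast-like cells. The cause of the further change was not tested. Thinned to 2000 UMIs they were 3.90 and 2.64, in low-cycle, middle and high-cycle cells 2.44 and 1.88, 1.74 and 2.55, and 2.06 and 2.51, and in male-called cells 3.38 and 3.33. Hmga2 was 2.88 with each cell weighted equally, 3.33 in female-called cells and 2.89 summed with Hmga2-ps1. By subcluster the values were 2.18 and 2.62 (0), 2.18 and 1.25 (1), 0.40 and 0.89 (2), 1.00 and 1.13 (3), and for Hmga2 3.39 (4) and 0.21 (5), and 1.16 and 1.64 without subcluster 0. Igf2bp1 changed sign in low-cycle (-0.19) and middle (-0.15) cells, in subclusters 1 (-0.055) and 3 (-0.21) and at resolution 0.2 (-0.0033), and Igf2bp3 in low-cycle cells (-0.030) and subclusters 1 (-0.017) and 5 (-0.16), where the causes were not tested. At resolution 0.2 the log2 ratio of Igf2bp3 was 0.032 and that of Igf2bp2 0.29.

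In other cell types Hmga2 was at least -0.66 in erythroid-like cells thinned to 2000 UMIs and at least -0.11 in male-called keratinocyte-like cells, lower bounds set by the floor of 3 because BSA had 0 UMIs in both, so that neither shows a change of sign. Igf2bp3 was -1.05 in male-called lymphatic endothelial-like cells, with an interval of -2.83 to 1.36 that included 0. That value came from 18 UMIs in 7 FGF8 cells and 3 UMIs in 3 BSA cells, beside 0.91 (0.07 to 1.72) over all cells of this type. The median of the other fetal growth genes was -0.53 under the stricter filter and -0.38 in male-called cells, and that of the S and G2/M genes 0.81 thinned to 2000 UMIs, 0.81 with cells weighted equally, 1.08 for female and 0.71 for male calls. The order of the libraries in the merge, leaving out integration, the members as features or the shared barcodes, removing the highest doublet scores, centring on all genes and thinning to 5000 UMIs left the Hmga1 and Hmga2 ratios within their counting intervals. Lin28b, with 21 and 4 UMIs in fibroblast-like cells, ranged from -0.89 in subcluster 0 to 3.45 without it. Its log2 ratio was above 1 in 8 of 11 alternatives. It was 0.23 with the highest doublet scores removed and -0.24 in high-cycle cells.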
